A study of Drosophila melanogaster with 12 samples.

Results

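The common response to conditional *ERR* knockout was measured across all genes in whole adult *Drosophila melanogaster* females, with the *ERR* allele held apart. All 12 of the 12 RNA-seq libraries entered the comparison, 6 from knockout females and 6 from control females. Each side was made of 3 *ERR* cond.2 and 3 *ERR* cond.19-4 libraries. An additive model gave each allele its own control level and a shared knockout effect. It asked which transcripts shifted in knockouts on average over the alleles. A call does not by itself show a change with each allele. No measured value was used to choose the libraries.

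Knockout females of both alleles were heat shocked at 37 °C on 2 occasions 24 h apart, starting at 0 to 2 d of age. Control siblings of the same genotype were not heat shocked, and every library was made from 10 whole females frozen 7 d after the heat shock, in 3 independent experiments. In *ERR* cond.2 females FRT sites flank an *ERR::GFP* transgene carried in trans to the *ERR1* and *ERR2* mutant alleles, and its removal leaves an *ERR1/ERR2* animal. In *ERR* cond.19-4 females FRT sites flank the endogenous gene in an *ERR2* background. The *ERR2* deletion covers the *ERR* coding region and parts of *Atg18a* and *CG7979*, and it was carried by the controls as well. In these libraries effects of heat shock and of *ERR* loss cannot be told apart. The count table numbers the alleles, and number 2 was read as *ERR* cond.2, which no source used here states. DESeq2 called 566 genes in the libraries of number 2 and 428 in the others. Under this reading the study reports the same order of the alleles with that tool. The common effect is the same under either reading.

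ERR is an orphan nuclear receptor, a transcription factor that in *Drosophila* is known to control carbohydrate metabolism in development. Glycolysis splits glucose to pyruvate, the pentose phosphate pathway (PPP) branches from glucose 6-phosphate to make NADPH and ribose phosphates, and glycogen and trehalose are the stored and circulating carbohydrates of the fly. Enzymes that carry reducing equivalents from cytosol to mitochondria restore the NAD+ that glycolysis uses.

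The libraries held 17167432 to 20625801 counts in genes. Levels are given as CPM, the usual depth-scaled count, with library sizes scaled by the trimmed mean of M values (TMM) over all 12 libraries. Changes are log2 of knockout over control from the quasi-likelihood test of edgeR, with a standard error (SE), and a transcript was called at a Benjamini-Hochberg adjusted p under 0.05 over all genes tested. Both *ERR* cond.2 libraries of number 1 stood apart, with voom quality weights of 0.239 for the control and 0.284 for the knockout, beside 0.726 to 1.90 for the other libraries. Ovary and fat body transcripts also differed between the *ERR* cond.2 arms. Yolk protein transcripts made up 5.65 to 8.65% of counts in the *ERR* cond.2 controls and 2.90 to 5.01% in the knockouts, and the 7 vitelline membrane transcripts made up 0.253 to 0.614% and 0.804 to 1.55%. In the *ERR* cond.19-4 libraries the ranges of the arms overlapped for yolk proteins, at 2.77 to 3.37% and 2.93 to 2.95%, and for vitelline membrane, at 1.51 to 1.97% and 1.61 to 1.73%. The fat body marker share did not overlap with either allele and lay in opposite directions. It was 0.155 to 0.260% in controls and 0.104 to 0.140% in knockouts with *ERR* cond.2, and 0.120 to 0.141% and 0.145 to 0.156% with *ERR* cond.19-4. The part of these tissues in the changes below was not tested. In whole females fewer cells of a type and less RNA per cell cannot be told apart.

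Of 10029 genes tested out of 17558 in the table, 185 were called (1.84%). The transcripts of 108 genes fell in the knockouts (1.08%) and those of 77 rose (0.768%). These shares are the background for the called members of each list below. With total counts as library size the split was 70 lower and 77 higher. Over all genes tested the log2 fold changes had a median of 0.00, and 1744 genes had an unadjusted p under 0.05. The 21 transcripts with the lowest p all fell, and the first that rose, *CG14292*, ranked 22. Of the transcripts that fell 25 changed by at least 2-fold and 57 by less than 1.5-fold, whereas of those that rose 9 and 41 did so. All 3 knockout libraries lay below all 3 controls with both alleles for 95 of the 108 transcripts that fell, and above them for 62 of the 77 that rose. Over all genes tested 375 were separated in this way in the same direction (3.74%), 207 of them lower (2.06%) and 168 higher (1.68%). More than every other call was thus under 1.5-fold in size, and few overlapped between the arms. Separation of the arms comes from the same values as the call and is no further test of it.

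**Figure D1:**
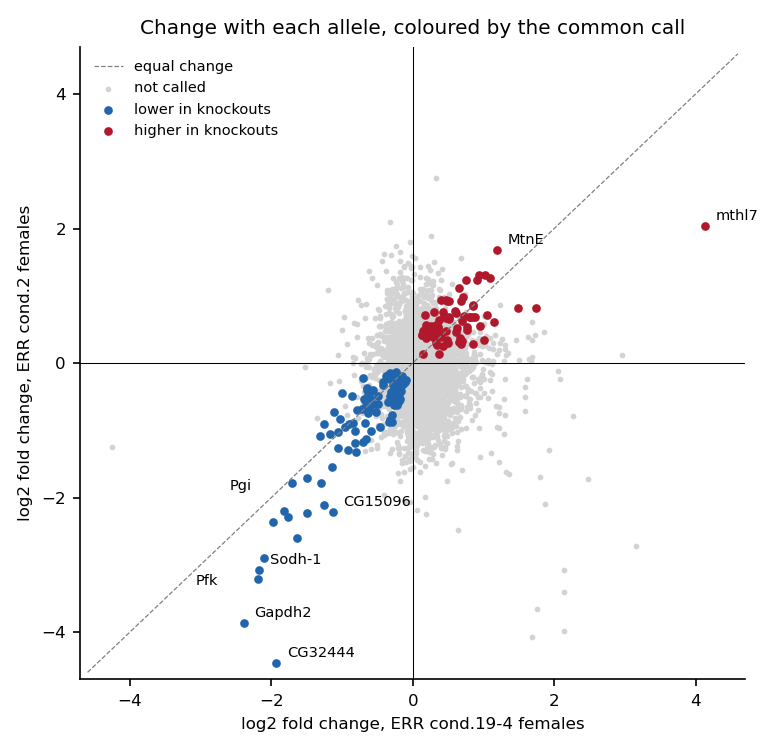
Log2 fold change of every gene tested with each allele, knockout over control, with *ERR* cond.19-4 on the x axis and *ERR* cond.2 on the y axis. Points in blue fell and points in red rose in the common fit, grey points were not called, and the dashed line marks equal change; the called transcripts lie in the quadrants of equal sign, and *CG32444*, *Gapdh2*, *Pfk* and *Sodh-1* are at the lower left.

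Glycolysis fell almost as a whole. Of 12 listed enzymes tested, 11 fell and none rose, with a median log2 fold change of −1.80 beside 0.00 for all genes tested. The list's share of all counts was 0.502 to 0.551% in *ERR* cond.2 controls and 0.136 to 0.147% in their knockouts, and 0.710 to 0.741% and 0.217 to 0.248% in the *ERR* cond.19-4 groups. The study names this pathway from the same libraries, so the list is not independent evidence of its direction. Its median was −2.01 in the *ERR* cond.2 fit and −1.60 in the *ERR* cond.19-4 fit.

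*Gapdh2* (chromosome X, 15868145 to 15869661, plus strand), which encodes a glyceraldehyde 3-phosphate dehydrogenase, had the largest fold change of any called transcript. Its level was 1240, 1280 and 1380 CPM in the *ERR* cond.2 controls and 87.6, 92.5 and 88.8 CPM in the knockouts. With *ERR* cond.19-4 it was 1740, 1770 and 1840 CPM in controls and 337, 378 and 303 CPM in knockouts. Every knockout library was below every control library, and the common log2 fold change was −3.12 (SE 0.23, adjusted p = 5.04e-06, edgeR). The change was larger with *ERR* cond.2, by −1.46 on the log2 scale (adjusted p = 0.000152, edgeR interaction), so the common value lies between the 2 alleles' own values of −3.86 and −2.39. The paralog *Gapdh1* fell less, from 798, 740 and 775 CPM to 238, 234 and 240 CPM with *ERR* cond.2 and from 862, 855 and 930 CPM to 311, 330 and 299 CPM with *ERR* cond.19-4 (log2 change −1.60, SE 0.05, adjusted p = 1.44e-09, edgeR). The sources used here do not say how reads shared by these paralogs were assigned.

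*Pfk* encodes phosphofructokinase, the committed step of glycolysis. It stood at 94.2, 116 and 115 CPM in *ERR* cond.2 controls and 12.8, 11.5 and 11.1 CPM in knockouts, and at 154, 148 and 169 CPM and 33.7, 38.8 and 30.7 CPM with *ERR* cond.19-4 (common log2 change −2.67, SE 0.17, adjusted p = 9.37e-07, edgeR). *Tpi*, the triose phosphate isomerase on chromosome 3R (30132981 to 30134599), fell from 469, 485 and 490 CPM to 63.8, 66.0 and 65.8 CPM and from 650, 643 and 666 CPM to 148, 169 and 138 CPM (log2 change −2.49, SE 0.13, adjusted p = 1.17e-07, edgeR). The arms of both genes were far apart with either allele. *Pgi*, the glucose 6-phosphate isomerase that feeds *Pfk*, had the lowest p of all genes tested. Its 6 control values of 178, 186, 202, 303, 281 and 288 CPM stood against 53.3, 53.3, 58.4, 86.7, 96.0 and 84.3 CPM in the knockouts, in the order *ERR* cond.2 then *ERR* cond.19-4 (log2 change −1.74, SE 0.05, adjusted p = 8.69e-10, edgeR). The alleles gave nearly the same size for *Pgi*, with a difference of −0.07 on the log2 scale (unadjusted p = 0.475, edgeR interaction).

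The enzymes after triose phosphate also fell. *Pglym78*, a phosphoglycerate mutase, went from 264 to 278 CPM in *ERR* cond.2 controls to 50.1 to 57.5 CPM in knockouts, and from 383 to 399 CPM to 92.8 to 111 CPM with *ERR* cond.19-4 (log2 change −2.17, SE 0.08, adjusted p = 3.38e-09, edgeR). *Eno*, the enolase, went from 967 to 1040 CPM to 190 to 212 CPM and from 944 to 966 CPM to 264 to 296 CPM (log2 change −2.02, SE 0.09, adjusted p = 2.09e-08, edgeR). The phosphoglycerate kinase *Pgk* had a common log2 fold change of −1.86 (SE 0.12, adjusted p = 1.56e-06, edgeR). *Pgk* shares 624 bp with *Bacc* and *Eno* shares 905 bp with *Rrp40* on the opposite strand, and the sources used here do not say whether the counting used strand. The aldolase *Ald* (log2 change −1.10, adjusted p = 5.69e-06) and the pyruvate kinase *PyK* (−0.93, adjusted p = 6.44e-07) fell by less in edgeR. The pathway's entry step changed least. The hexokinase *Hex-A* stood at 109 to 116 CPM in *ERR* cond.2 controls and 99.7 to 101 CPM in knockouts, and at 134 to 140 CPM and 104 to 109 CPM with *ERR* cond.19-4 (log2 change −0.26, SE 0.04, adjusted p = 0.00654, edgeR), a call lost with total counts as library size. The hexokinase *Hex-C* was the listed enzyme not called (log2 change −0.08, SE 0.19, adjusted p = 0.848, edgeR), and its own log2 fold changes had opposite signs, −0.57 with *ERR* cond.2 (adjusted p = 0.229) and 0.41 with *ERR* cond.19-4 (adjusted p = 0.00324, edgeR). Whichever library was left out, 11 of the listed glycolytic enzymes were called lower.

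**Figure D2:**
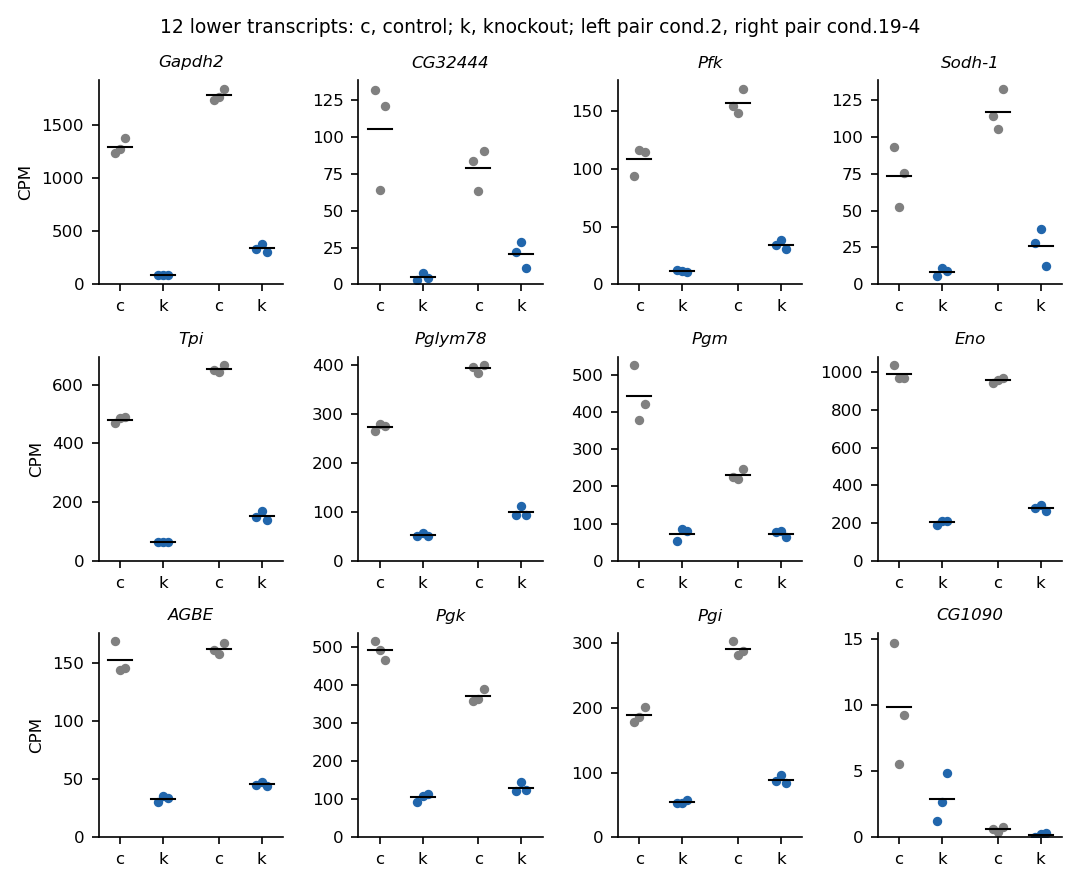
CPM in each library for the 12 transcripts with the largest fall among those separated with both alleles, in controls (c, grey) and knockouts (k, blue), with *ERR* cond.2 as the left pair and *ERR* cond.19-4 as the right pair. Points are libraries and bars are means of 3; in every panel the 3 knockout points lie below the 3 control points of the same allele, as for *Gapdh2* at 87.6 to 92.5 CPM against 1240 to 1380 CPM.

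All 7 PPP enzymes tested fell, with a median log2 fold change of −0.55. The PPP share of counts was 0.141 to 0.155% in *ERR* cond.2 controls and 0.0780 to 0.0913% in knockouts, and 0.129 to 0.131% and 0.0834 to 0.0876% with *ERR* cond.19-4. The study also names this pathway from these libraries. The largest change was that of *CG8036*, annotated as a transketolase, at 944, 679 and 837 CPM in *ERR* cond.2 controls and 314, 388 and 378 CPM in knockouts. With *ERR* cond.19-4 it stood at 485, 502 and 540 CPM and 285, 297 and 284 CPM (common log2 change −1.0, SE 0.09, adjusted p = 3.93e-05, edgeR). The arms did not overlap for any of the 7 enzymes with either allele, beside 95 of the 108 transcripts that fell and 2.06% of all genes tested.

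The other non-oxidative enzymes fell by less. The transaldolase *Tal* had a log2 fold change of −0.70 (SE 0.05, adjusted p = 6.94e-06, edgeR) and the ribose 5-phosphate isomerase *Rpi* one of −0.55 (SE 0.05, adjusted p = 1.89e-05, edgeR). *CG30499*, annotated as ribulose-phosphate epimerase, fell by 0.41 on the log2 scale (adjusted p = 0.000154, edgeR). The oxidative branch, which makes NADPH, changed by similar amounts. *Zw*, the glucose 6-phosphate dehydrogenase, stood at 29.2, 29.2 and 30.1 CPM in *ERR* cond.2 controls and 18.8, 22.7 and 21.5 CPM in knockouts, and at 30.6, 30.2 and 37.2 CPM and 24.2, 23.0 and 22.6 CPM with *ERR* cond.19-4 (log2 change −0.49, SE 0.07, adjusted p = 0.00175, edgeR). *Pgd*, the 6-phosphogluconate dehydrogenase, fell from 228, 185 and 170 CPM to 86.7, 116 and 123 CPM and from 123, 131 and 140 CPM to 100, 111 and 101 CPM (log2 change −0.59, SE 0.12, adjusted p = 0.0217, edgeR). The 6-phosphogluconolactonase *CG17333*, now *Pgls*, was called in neither allele's own fit (adjusted p = 0.110 and 0.0664) but fell in the common fit (log2 change −0.31, SE 0.05, adjusted p = 0.0109, edgeR). The *Pgd* call was lost without *ERR* cond.2 control 2, *ERR* cond.2 knockout 2 or 3, or *ERR* cond.19-4 knockout 1, and its adjusted p over all alternatives ran from 0.000265 to 0.186. The other 6 PPP calls were kept whichever library was left out.

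**Figure D3:**
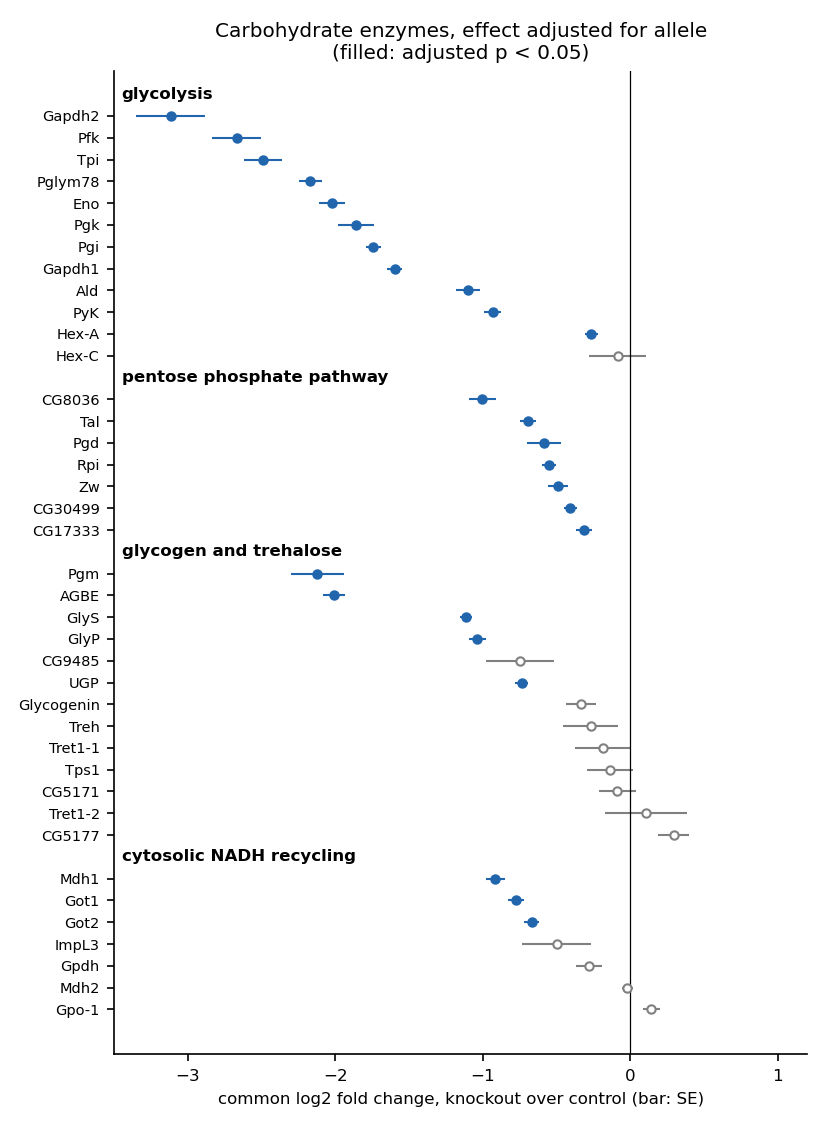
Common log2 fold change (x axis, knockout over control, bars ± SE) of every tested enzyme of the glycolysis, pentose phosphate, glycogen and trehalose, and NADH recycling lists. Filled points passed an adjusted p of 0.05 and open points did not; the glycolytic enzymes other than *Hex-A* and *Hex-C* lie between −3.12 and −0.93, and the pentose phosphate enzymes between −1.0 and −0.31.

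Of the 13 glycogen and trehalose genes tested, 5 fell and none rose (median log2 fold change −0.33), and the calls were all of glycogen synthesis, breakdown or its sugar phosphates. *AGBE*, the glycogen branching enzyme, stood at 169, 144 and 146 CPM in *ERR* cond.2 controls and 30.2, 35.7 and 34.3 CPM in knockouts. With *ERR* cond.19-4 it stood at 161, 158 and 167 CPM and 44.7, 47.8 and 44.4 CPM (common log2 change −2.01, SE 0.08, adjusted p = 5.38e-09, edgeR). *Pgm*, the phosphoglucomutase that links glucose 1-phosphate to glucose 6-phosphate, fell from 525, 378 and 422 CPM to 54.4, 85.1 and 79.4 CPM and from 226, 219 and 246 CPM to 76.6, 79.5 and 64.6 CPM (log2 change −2.12, SE 0.18, adjusted p = 1.69e-05, edgeR). Neither gene overlapped between the arms.

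Transcripts of the glycogen synthase and of the glycogen phosphorylase fell side by side. The glycogen synthase *GlyS* stood at 151 to 160 CPM in *ERR* cond.2 controls and 72.9 to 76.5 CPM in knockouts, and at 178 to 194 CPM and 82.0 to 84.6 CPM with *ERR* cond.19-4 (log2 change −1.12, SE 0.04, adjusted p = 3.38e-09, edgeR). The glycogen phosphorylase *GlyP* stood at 371 to 439 CPM and 189 to 226 CPM, and at 391 to 432 CPM and 188 to 200 CPM (log2 change −1.04, SE 0.06, adjusted p = 3.04e-07, edgeR). Both genes had nearly equal changes with the alleles, with differences of 0.12 and 0.05 on the log2 scale (unadjusted p = 0.111 and 0.655, edgeR interaction). *UGP*, the UDP-glucose pyrophosphorylase, fell by 0.74 on the log2 scale (SE 0.04, adjusted p = 6.44e-07, edgeR), and it overlaps *PGRP-LF* over 623 bp and *CG32040* over 1425 bp on the opposite strand. *PhKgamma*, the catalytic subunit of phosphorylase kinase, was not on the list and fell from 66.9 to 70.8 CPM to 42.1 to 43.7 CPM and from 68.1 to 73.7 CPM to 44.9 to 47.4 CPM (log2 change −0.65, SE 0.04, adjusted p = 7.37e-07, edgeR). The trehalose genes did not pass the test, and neither did the listed *Glycogenin* and *CG9485*. *Tps1*, the trehalose 6-phosphate synthase, had a log2 fold change of −0.13 (SE 0.16, adjusted p = 0.675), the trehalase *Treh* one of −0.27 (SE 0.19, adjusted p = 0.468) and the transporter *Tret1-1* one of −0.19 (SE 0.19, adjusted p = 0.631, edgeR).

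Among 7 genes that recycle cytosolic NADH, 3 fell and none rose (median log2 fold change −0.50), and the 3 belong to the malate-aspartate shuttle. *Mdh1*, the cytosolic malate dehydrogenase, stood at 807, 670 and 675 CPM in *ERR* cond.2 controls and 326, 351 and 392 CPM in knockouts, and at 622, 593 and 633 CPM and 352, 360 and 335 CPM with *ERR* cond.19-4 (common log2 change −0.92, SE 0.06, adjusted p = 3.03e-06, edgeR). The aspartate aminotransferases *Got1* (log2 change −0.77, SE 0.06, adjusted p = 3.20e-06) and *Got2* (−0.67, SE 0.05, adjusted p = 6.51e-06, edgeR) fell in the same way, with no overlap of arms with either allele. The mitochondrial malate dehydrogenase *Mdh2* had a log2 fold change of −0.02 (SE 0.04, adjusted p = 0.817, edgeR). Values of the other routes were −0.50 (SE 0.23, adjusted p = 0.296) for the lactate dehydrogenase *ImpL3*, −0.28 (SE 0.09, adjusted p = 0.145) for the glycerol 3-phosphate dehydrogenase *Gpdh* and 0.14 (SE 0.06, adjusted p = 0.229, edgeR) for its mitochondrial partner *Gpo-1*.

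Enzymes that act on other sugars were among the transcripts that fell most. *CG32444*, annotated as an aldose 1-epimerase (chromosome 3L, 21636947 to 21639060), stood at 132, 63.7 and 121 CPM in *ERR* cond.2 controls and 2.71, 7.41 and 4.27 CPM in knockouts. With *ERR* cond.19-4 it stood at 83.6, 63.1 and 90.7 CPM and 22.1, 28.8 and 11.2 CPM (common log2 change −3.06, SE 0.47, adjusted p = 0.00379, edgeR). The sorbitol dehydrogenase gene *Sodh-1* (chromosome 3R, 7052335 to 7054541, plus strand), fell from 92.7, 52.3 and 75.6 CPM to 5.59, 11.3 and 9.20 CPM and from 114, 105 and 132 CPM to 28, 37.4 and 12.3 CPM (log2 change −2.59, SE 0.28, adjusted p = 0.000169, edgeR). The arms of both genes were separate, although the replicates varied more than those of the glycolytic enzymes. The related *Sodh-2* was not called (log2 change 0.09, SE 0.09, adjusted p = 0.621, edgeR). *CG1979*, the next gene downstream of *Sodh-1* on the same strand (7054586 to 7058671), was low in every library, at 2.32 to 4.41 and 0.541 to 0.908 CPM with *ERR* cond.2 and 1.56 to 2.69 and 0.583 to 1.34 CPM with *ERR* cond.19-4, and fell in the common fit (log2 change −1.68, SE 0.28, adjusted p = 0.00676, edgeR).

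Further carbohydrate enzymes outside the lists were called, and they are named here after their values were seen. *CG8417*, the mannose 6-phosphate isomerase *Mpi*, fell from 32.1 to 39.8 CPM to 18.8 to 20.5 CPM and from 40.5 to 45.4 CPM to 22.9 to 25.4 CPM (log2 change −0.87, SE 0.06, adjusted p = 3.40e-06, edgeR). The aldose reductase *CG6084*, now *Akr1B*, fell from 229 to 247 CPM to 145 to 162 CPM and from 358 to 397 CPM to 226 to 245 CPM (log2 change −0.65, SE 0.04, adjusted p = 1.76e-06, edgeR). The galactokinase *Galk* (log2 change −0.36, adjusted p = 0.0192) and the gluconeogenic fructose 1,6-bisphosphatase *fbp* (−0.59, adjusted p = 0.0451, edgeR) were called as well, but the *fbp* call was lost without any 1 of the 12 libraries and the *Galk* call without *ERR* cond.2 knockout 2 or *ERR* cond.19-4 knockout 2. The arms were separate with both alleles for each of these 4 genes. The digestive enzymes were mixed. Of 14 tested *Amy-p*, an amylase with a near-identical copy in *Amy-d*, fell (log2 change −0.37, adjusted p = 0.0477) and the maltase *Mal-A6* rose (0.40, adjusted p = 0.0412, edgeR), but the calls were lost in 15 and 13 of 24 alternatives. The *Amy-p* call was kept on leaving out *ERR* cond.2 knockout 3 or *ERR* cond.19-4 control 2, and the *Mal-A6* call on leaving out *ERR* cond.2 control 1 or knockout 1, and each was lost without any other library.

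*CG1090*, outside all lists, was called at a log2 fold change of −1.72 (SE 0.37, adjusted p = 0.0374, edgeR), but its level with *ERR* cond.19-4 ranged over 0.438 to 0.817 CPM in the controls and 0.0501 to 0.346 CPM in the knockouts, and the call was lost in 16 of 23 alternatives. Those included the omission of *ERR* cond.2 control 1 or 3, *ERR* cond.2 knockout 1 or 2, any *ERR* cond.19-4 control, or *ERR* cond.19-4 knockout 1 or 2, and its adjusted p ran from 0.00129 to 0.687. *CG3534* stood at 37.5 to 39.7 and 27.3 to 30.6 CPM with *ERR* cond.2 and 30.2 to 36.1 and 25.7 to 29.2 CPM with *ERR* cond.19-4 (log2 change −0.37, SE 0.06, adjusted p = 0.00898, edgeR). Its arms did not overlap, although neither allele's own fit called it, and 66 bp of it lie opposite *CG16941*.

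A further set of called genes with known roles, named after their values were seen, lay outside all lists. *CG3714*, the nicotinate phosphoribosyltransferase *Naprt* of NAD synthesis, stood at 29.2 to 31 CPM in *ERR* cond.2 controls and 11.9 to 16.4 CPM in knockouts, and at 27.8 to 35.7 CPM and 19.3 to 20.6 CPM with *ERR* cond.19-4 (common log2 change −0.89, SE 0.11, adjusted p = 0.000485, edgeR). *CG3699*, given as *DECR2* in the reference, fell from 20.7 to 35.3 CPM to 7.03 to 8.52 CPM and from 42.2 to 52.7 CPM to 16.2 to 21.6 CPM (log2 change −1.52, SE 0.14, adjusted p = 4.49e-05, edgeR). The aldehyde dehydrogenase gene *Aldh* stood at 518 to 581 and 289 to 390 CPM and at 292 to 378 and 266 to 285 CPM, and fell (log2 change −0.42, SE 0.10, adjusted p = 0.0479, edgeR), a call lost in 15 of 24 alternatives, among them the omission of any library but *ERR* cond.2 knockout 1 or *ERR* cond.19-4 control 1 or 2. Each of these 3 was separated between the arms with both alleles. The insulator protein gene *CTCF* fell by less (log2 change −0.29, adjusted p = 0.0180, edgeR), was called in neither own fit, and lost its call without *ERR* cond.2 control 2 or knockout 2 or *ERR* cond.19-4 knockout 1, and with total counts as library size. On the other side *Gnmt*, the glycine N-methyltransferase, rose from 12.7 to 18.9 CPM to 21.2 to 27.2 CPM and from 10 to 17 CPM to 20.2 to 26 CPM (log2 change 0.79, SE 0.14, adjusted p = 0.0124, edgeR). *CG9090*, the mitochondrial phosphate carrier *Mpcp1*, rose from 26.6 to 34.2 CPM to 44.5 to 50.8 CPM and from 31.1 to 31.7 CPM to 38.9 to 47.5 CPM (log2 change 0.56, SE 0.08, adjusted p = 0.00184, edgeR).

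The largest rise lay beside the *ERR* gene. *mthl7*, a methuselah family receptor gene (chromosome 3L, 8178675 to 8180514, minus strand), stood at 4.59, 3.09 and 3.31 CPM in *ERR* cond.2 controls and 13.8, 15.9 and 15.6 CPM in knockouts. With *ERR* cond.19-4 it stood at 0.852, 1.51 and 0.255 CPM and 15.3, 15.8 and 15.6 CPM, so the knockouts reached the same level from different starting levels (common log2 change 2.89, SE 0.33, adjusted p = 0.000281, edgeR). The difference in fold change between the alleles was −2.09 on the log2 scale (unadjusted p = 0.000209, adjusted p = 0.0598, edgeR interaction). *CG7979*, now *Uxs*, which encodes a UDP-glucuronate decarboxylase, lies between *mthl7* and *ERR* (8180923 to 8183369, plus strand) and is reached by the *ERR2* deletion. It fell from 51.9, 45.5 and 48.3 CPM to 37.3, 42.1 and 33.8 CPM and from 20.6, 17.6 and 14.9 CPM to 9.97, 12.9 and 10.9 CPM (log2 change −0.50, SE 0.10, adjusted p = 0.0231, edgeR). That call was lost without *ERR* cond.2 knockout 3, *ERR* cond.19-4 control 2 or *ERR* cond.19-4 knockout 1 or 3, and with total counts as library size, and its adjusted p over the alternatives ran from 0.000288 to 0.823.

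The *ERR* transcript itself (8183361 to 8186671, minus strand) was not called in the common fit. It stood at 8.52, 12.1 and 9.34 CPM in *ERR* cond.2 controls and 9.53, 10.4 and 10.3 CPM in knockouts, which overlapped, and at 7.76, 6.38 and 5.62 CPM and 4.01, 3.25 and 3.81 CPM with *ERR* cond.19-4, which did not (common log2 change −0.37, SE 0.16, adjusted p = 0.280, edgeR). With *ERR* cond.2 transcripts of the *ERR1* allele, which keeps most of the gene, can be counted as *ERR*, and their share was not tested. The check of the label by the targeted transcript therefore held with *ERR* cond.19-4 and gave no answer with *ERR* cond.2. *Atg18a*, on the other side (8186857 to 8191118, plus strand), had a log2 fold change of 0.11 (SE 0.08, adjusted p = 0.498, edgeR). Other methuselah receptors followed no shared direction. Of 12 tested *mthl7* rose, *mthl5* fell (log2 change −0.48, SE 0.09, adjusted p = 0.0226, edgeR) and the median was 0.04, and *mthl5* lies within *CG31368* on the opposite strand over its whole 3231 bp. The *mthl5* call was lost without *ERR* cond.2 control 2 or 3, *ERR* cond.2 knockout 2, *ERR* cond.19-4 control 1 or 2 or *ERR* cond.19-4 knockout 1, and with total counts as library size.

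**Figure D4:**
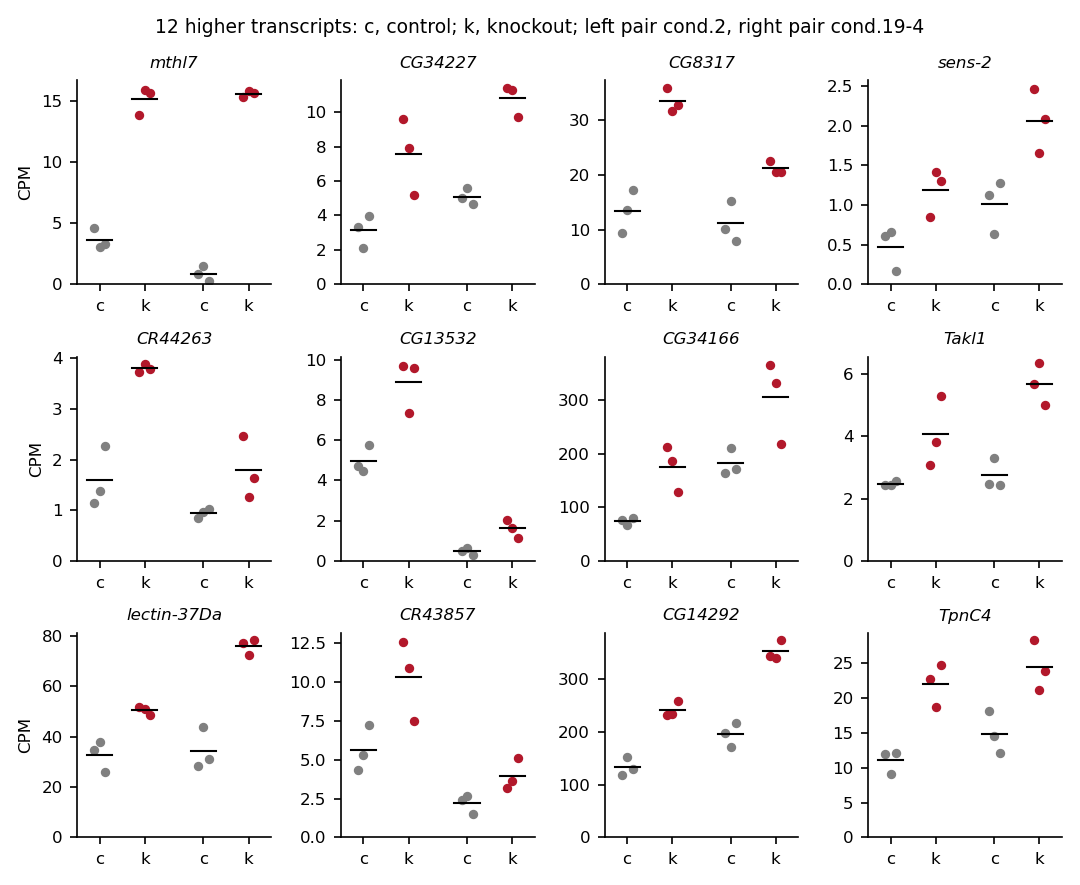
CPM in each library for the 12 transcripts with the largest rise among those separated with both alleles, drawn as controls (c, grey) and knockouts (k, red), with *ERR* cond.2 as the left pair and *ERR* cond.19-4 as the right pair. Bars are means of 3 libraries; *mthl7* ends at 13.8 to 15.9 CPM in all 6 knockouts, and in every panel the 3 knockout points lie above the 3 control points of the same allele.

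Of 7 acyl-CoA binding protein and thioesterase genes tested 3 rose, 4 did not pass and none fell, with a median log2 fold change of 0.47. Only 2 were called on leaving out any *ERR* cond.2 control, *ERR* cond.2 knockout 2, any *ERR* cond.19-4 control or *ERR* cond.19-4 knockout 1 or 2, and none without the allele term. The study names *CG8628* and *CG16985* from these libraries. *CG8628*, the acyl-CoA binding protein *Acbp3*, stood at 42.4, 44.7 and 58.1 CPM in *ERR* cond.2 controls and 92.6, 86.2 and 102 CPM in knockouts. With *ERR* cond.19-4 it stood at 116, 129 and 159 CPM and 184, 176 and 171 CPM (common log2 change 0.67, SE 0.12, adjusted p = 0.0123, edgeR). *CG16985*, which encodes a predicted fatty acyl-CoA hydrolase, rose from 19.5, 19.5 and 22.2 CPM to 26.0, 28.5 and 31.1 CPM and from 25.7, 27.1 and 24.6 CPM to 34.8, 40.6 and 31.1 CPM (log2 change 0.47, SE 0.07, adjusted p = 0.00495, edgeR). The arms of both genes were separate with either allele. *CG5804*, or *Acbp5*, was called at 0.42 (SE 0.10, adjusted p = 0.0454, edgeR), lies opposite *Fhos*, and lost its call in 13 of 24 alternatives. Those included the omission of any *ERR* cond.2 control, *ERR* cond.2 knockout 1 or 2, any *ERR* cond.19-4 control, or *ERR* cond.19-4 knockout 1 or 2, with an adjusted p of 0.00383 to 0.675 over the alternatives. Members not called had values of 0.49 for *CG16986* (adjusted p = 0.0677) and 0.75 for *CG15829* (adjusted p = 0.126, edgeR).

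Of 11 fatty acid synthesis genes tested *CG3523*, the fatty acid synthase FASN1, rose and *ATPCL*, the ATP citrate lyase, fell. The list median of −0.11 rested on the *ERR* cond.2 libraries of number 1, being 0.01 without the knockout, −0.05 without the control and 0.06 without both, and 0.01 with limma voom. *CG3523* stood at 211, 202 and 197 CPM in *ERR* cond.2 controls and 308, 280 and 282 CPM in knockouts, and at 166, 204 and 226 CPM and 240, 240 and 243 CPM with *ERR* cond.19-4 (common log2 change 0.40, SE 0.07, adjusted p = 0.0126, edgeR). It passed in the *ERR* cond.2 fit (adjusted p = 0.0372) and not in the *ERR* cond.19-4 fit (adjusted p = 0.0960), and the interaction gave an unadjusted p of 0.0917. *ATPCL*, which makes cytosolic acetyl-CoA, stood at 176 to 188 and 147 to 162 CPM and at 180 to 202 and 150 to 156 CPM (log2 change −0.26, SE 0.04, adjusted p = 0.00726, edgeR). Of 17 lipolysis and beta-oxidation genes tested the lipid droplet protein gene *Lsd-1* fell (log2 change −0.61, SE 0.12, adjusted p = 0.0227, edgeR) and none rose (median −0.06). The *Lsd-1* call was lost without *ERR* cond.2 control 2, any *ERR* cond.2 knockout, *ERR* cond.19-4 control 3 or *ERR* cond.19-4 knockout 1, with adjusted p of 0.000287 to 0.133 over the alternatives, and the gene shares 144 bp with *CG10214*.

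Detoxification genes changed in small numbers, where 185 of all 10029 genes tested were called (1.84%). Of 34 glutathione S-transferases tested 3 rose and 1 fell (median log2 fold change 0.08). *GstE3* stood at 23.2, 19.3 and 18.2 CPM in *ERR* cond.2 controls and 33.7, 34.3 and 29.4 CPM in knockouts, and at 39.2, 39.8 and 37.6 CPM and 57.8, 54.1 and 53.2 CPM with *ERR* cond.19-4 (common log2 change 0.59, SE 0.07, adjusted p = 0.000451, edgeR). *GstE8*, of the same gene cluster on chromosome 2R, moved the other way, from 23.6 to 31.7 CPM to 15.2 to 18.7 CPM and from 17.1 to 18.8 CPM to 11.5 to 11.9 CPM (log2 change −0.69, SE 0.08, adjusted p = 0.000485, edgeR). *GstD9* rose by a log2 fold change of 0.49 (adjusted p = 0.00421) and *GstO3* by 0.35 (adjusted p = 0.0446, edgeR), and the latter call was lost in 14 of 24 alternatives, among them the omission of any library but *ERR* cond.2 control 1 or knockout 1. Of 74 cytochrome P450 genes tested *Cyp12a4* (0.34, SE 0.04, adjusted p = 0.000992) and *Cyp6d4* (0.68, SE 0.11, adjusted p = 0.00454, edgeR) rose and none fell. The list median was −0.15, with 49 of the 74 at a negative value. It was −0.44 with *ERR* cond.2 and 0.20 with *ERR* cond.19-4. The share of counts of this family was 1.16 to 2.09% in *ERR* cond.2 controls and 0.638 to 1.39% in knockouts, and 0.290 to 0.308% and 0.311 to 0.325% with *ERR* cond.19-4, and the 2 called genes were separated between the arms with both alleles. *MtnE* was called among 5 metallothioneins, at 1.62 to 2.38 CPM and 5.14 to 7.88 CPM with *ERR* cond.2 and 3.58 to 6.81 CPM and 6.24 to 17.2 CPM with *ERR* cond.19-4, where the arms overlapped (log2 change 1.39, SE 0.26, adjusted p = 0.0165, edgeR).

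Of the transcripts that rose, *CG14292* had the lowest p. It stood at 119, 153 and 130 CPM in *ERR* cond.2 controls and 233, 234 and 258 CPM in knockouts, and at 198, 172 and 217 CPM and 344, 341 and 375 CPM with *ERR* cond.19-4 (common log2 change 0.85, SE 0.07, adjusted p = 1.11e-05, edgeR). The size was nearly equal with both alleles, at 0.84 and 0.86. *Mur18B*, annotated as a mucin-related gene, rose from 405, 396 and 305 CPM to 539, 637 and 606 CPM and from 513, 519 and 554 CPM to 940, 936 and 909 CPM (log2 change 0.75, SE 0.07, adjusted p = 4.27e-05, edgeR). *CG8317*, now *Lst*, which encodes the decretin hormone limostatin, rose from 9.37, 13.6 and 17.2 CPM to 35.9, 31.7 and 32.7 CPM and from 10.2, 15.3 and 7.92 CPM to 22.5, 20.6 and 20.6 CPM (log2 change 1.13, SE 0.16, adjusted p = 0.00291, edgeR). Its arms were separate with both alleles, and the call was kept under every alternative run. *CG34166* rose from 67.6 to 80.2 CPM to 128 to 213 CPM and from 164 to 210 CPM to 217 to 366 CPM (log2 change 0.99, SE 0.16, adjusted p = 0.00519, edgeR).

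*CG4363* (0.76, SE 0.07, adjusted p = 4.27e-05), *CG9568* (0.80, SE 0.11, adjusted p = 0.00112) and *CG13309* (0.70, SE 0.08, adjusted p = 0.000396, edgeR) rose, were called in both own fits and had no overlap of arms.

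Among further transcripts that rose, *CG34227*, *CG13532*, *sens-2* and *Takl1* were low. *CG34227* stood at 2.14 to 3.95 and 5.19 to 9.58 CPM with *ERR* cond.2 and 4.65 to 5.60 and 9.70 to 11.4 CPM with *ERR* cond.19-4 (log2 change 1.16, SE 0.16, adjusted p = 0.00184, edgeR). *CG13532* had a log2 fold change of 1.05 (SE 0.19, adjusted p = 0.0152, edgeR) and lost its call without *ERR* cond.2 control 2. The zinc finger gene *sens-2*, at 0.174 to 2.46 CPM over the 12 libraries, was called at 1.12 (adjusted p = 0.0460, edgeR) and lost its call in 15 of 23 alternatives, among them the omission of any library but *ERR* cond.2 knockout 1 or *ERR* cond.19-4 control 3. *lectin-37Da*, of the C-type lectin family, rose from 25.9 to 37.7 CPM to 48.6 to 51.8 CPM and from 28.4 to 43.8 CPM to 72.5 to 78.5 CPM (log2 change 0.89, SE 0.13, adjusted p = 0.00297, edgeR), and all of its 713 bp lie opposite *Pax*. *Takl1* (0.90, SE 0.15, adjusted p = 0.00925) and the troponin C gene *TpnC4* (0.85, SE 0.13, adjusted p = 0.00326, edgeR) also lie wholly opposite another gene, *Syp* and *CG30438*. *TpnC4* stood at 9.10 to 12.1 and 18.7 to 24.7 CPM and at 12.1 to 18.1 and 21.2 to 28.4 CPM, with no overlap. Of 10 muscle genes tested *Tm2*, a tropomyosin, was called (0.31, SE 0.07, adjusted p = 0.0438, edgeR) and 9 of the 10 had a positive value (median 0.17). Their share of counts was 0.0571 to 0.0627% and 0.0677 to 0.0711% with *ERR* cond.2 and 0.0625 to 0.0774% and 0.0764 to 0.0830% with *ERR* cond.19-4, and the *Tm2* call was lost in 14 of 24 alternatives, among them the omission of any library but *ERR* cond.2 control 1 or *ERR* cond.19-4 control 1.

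The common fit drew on both alleles, and 66 of its 185 calls were made in neither allele's own fit, with 39 lower (median log2 fold change −0.34) and 27 higher (0.46). Both own fits called 37 of the 185, the *ERR* cond.19-4 fit alone called 74 and the *ERR* cond.2 fit alone called 8. The sign was the same with both alleles for all 183 called genes that both own fits tested, which the additive fit favours. *Cyp6d4* is an example of a call made from all 12 libraries, at 4.76 to 5.95 and 7.98 to 9.68 CPM and at 4.71 to 6.03 and 7.67 to 9.50 CPM, with own adjusted p of 0.107 and 0.0584. *sosie*, a gene first described in the ovary, stood at 4.47 to 5.95 and 8.55 to 9.63 CPM and at 1.57 to 2.20 and 2.66 to 3.16 CPM (common log2 change 0.71, SE 0.12, adjusted p = 0.00664, edgeR), with own adjusted p of 0.0993 and 0.237. *CG14949* (0.57, SE 0.10, adjusted p = 0.0107), *CG34324* (0.28, SE 0.05, adjusted p = 0.0112) and the long non-coding RNAs *CR43626* (0.65, SE 0.11, adjusted p = 0.0109) and *CR44263* (1.10, SE 0.20, adjusted p = 0.0142, edgeR) were of the same kind, and all 4 were separated between the arms with both alleles. The long non-coding RNA *CR43857* (0.86, SE 0.19, adjusted p = 0.0422, edgeR) was also called from the 12 libraries together, at 4.35 to 7.25 and 7.52 to 12.6 CPM and at 1.48 to 2.68 and 3.16 to 5.10 CPM. Its call was lost in 15 of 24 alternatives, with adjusted p up to 0.602, among them limma voom and the omission of any library but *ERR* cond.2 control 3 or knockout 3. Overlaps with a gene on the opposite strand also touch *CG34324* (1130 bp with *Neto*), *Vha44* (548 bp with *Hmgs*), *Zw* (495 bp with *CR44512*), *CG16985* (283 bp with *CG12182*) and *ATPCL* (177 bp with *CG8320*). *CG5111* was called at 2.14 (SE 0.38, adjusted p = 0.00813, edgeR) from levels of 0.0487 to 1.06 CPM.

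The study also names DNA replication and ribosomal transcripts, for *ERR* cond.2 females. The fit shared by both alleles, which asks a different question, called none of either list. Of 36 DNA replication genes tested 0 were called by edgeR, with 14 at an unadjusted p under 0.05, beside 1744 of all 10029 genes tested. Their median log2 fold change was −0.11 in the common fit, −0.18 with *ERR* cond.2 and −0.06 with *ERR* cond.19-4. DESeq2 called 6 of them lower and limma voom with quality weights 2. Without *ERR* cond.19-4 control 3 edgeR called 3 lower and without *ERR* cond.19-4 knockout 3 it called 2. *Orc2*, a subunit of the origin recognition complex, stood at 66.2, 53.8 and 54.9 CPM in *ERR* cond.2 controls and 35.0, 38.6 and 39.5 CPM in knockouts, which were separate, and at 55.6, 52.8 and 45.4 CPM and 42.2, 49.6 and 46.1 CPM with *ERR* cond.19-4, which overlapped (common log2 change −0.39, SE 0.10, adjusted p = 0.0678, edgeR). *Mcm3*, of the replicative helicase, fell in the *ERR* cond.2 fit (log2 change −0.53, adjusted p = 0.0374, edgeR) and had a common value of −0.30 (SE 0.08, adjusted p = 0.0903, edgeR). The common value was −0.15 (SE 0.07, adjusted p = 0.312, edgeR) for *DNApol-delta*, the catalytic subunit of polymerase delta. Its own log2 fold change was −0.34 with *ERR* cond.2 (adjusted p = 0.124), where the arms were separate, and 0.03 with *ERR* cond.19-4 (adjusted p = 0.874, edgeR). The *ERR* cond.2 fit called 61 genes in edgeR and 566 with DESeq2. The study's own test was made with the latter tool. A gene missed by the edgeR fit may thus pass in the other, and single genes of the latter are not given here. Of 85 cytoplasmic ribosomal protein genes 0 were called by edgeR, with 50 at an unadjusted p under 0.05, a median of 0.13, and 16 called higher by DESeq2 and 12 by limma voom. Their share of counts was 13.8 to 16.5% and 17.5 to 18.8% in the *ERR* cond.2 arms and 16.0 to 16.7% and 16.9 to 17.6% in the *ERR* cond.19-4 arms.

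No listed gene of nuclear oxidative phosphorylation or of the TCA cycle and pyruvate oxidation was called in the common fit. Their lowest adjusted p values were 0.0507 and 0.0532 (edgeR). For the list counts here and in the next paragraph the background is 1744 of all 10029 genes tested at an unadjusted p under 0.05. Of 61 nuclear oxidative phosphorylation genes tested 0 were called by edgeR, with 30 at an unadjusted p under 0.05, 54 with a positive value, a median of 0.10, and 8 called higher by DESeq2 and 3 by limma voom. Without *ERR* cond.19-4 control 3 or knockout 3 edgeR called 2 of them higher. Of 23 genes of the TCA cycle and pyruvate oxidation 0 were called by edgeR, with 8 at an unadjusted p under 0.05, a median of 0.04, and 3 called higher by DESeq2 and 3 by limma voom. With DESeq2 size factors, with at least 10 counts in every library, or without *ERR* cond.19-4 control 3 or knockout 3, edgeR called 1 of them higher. The 15 heat shock protein genes, which heat shock is known to induce, had 0 calls by edgeR at 7 d, 1 gene at an unadjusted p under 0.05, a median of −0.15, and 1 called lower by DESeq2 and 1 by limma voom. The insulin and adipokinetic hormone list of 13 and the list of 15 other nuclear receptors had 0 calls by edgeR, DESeq2 or limma voom, with 5 and 2 genes at an unadjusted p under 0.05. The 11 mitochondrial genome transcripts (median 0.10) and the 72 mitochondrial ribosomal protein genes (median 0.00) had 0 calls by edgeR, DESeq2 or limma voom, with 0 and 8 at an unadjusted p under 0.05. For 31 translation factors (median 0.08) edgeR made 0 calls, with 15 at an unadjusted p under 0.05, and DESeq2 called 2 higher and limma voom 1. For 33 proteasome genes (median −0.05) edgeR made 0 calls, with 10 at an unadjusted p under 0.05, and DESeq2 called 4 lower and limma voom 1. Ribosome biogenesis (19 tested, median 0.05) and gut serine proteases (27 tested, median −0.09) had 0 calls by edgeR and DESeq2 and 1 lower each by limma voom, with 3 genes each at an unadjusted p under 0.05. The 13 antimicrobial peptide genes had 0 calls by edgeR, DESeq2 or limma voom and 1 at an unadjusted p under 0.05, and their medians had opposite signs with the alleles, −1.73 with *ERR* cond.2 and 1.75 with *ERR* cond.19-4. Of 14 vacuolar proton ATPase genes *Vha44* was called (0.27, SE 0.06, adjusted p = 0.0391, edgeR), and the call was lost in 12 of 24 alternatives, among them the omission of *ERR* cond.2 control 2 or 3, any *ERR* cond.2 knockout, *ERR* cond.19-4 control 2 or *ERR* cond.19-4 knockout 1 or 3.

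Of 7 vitelline membrane genes 0 were called by edgeR, although all 7 had an unadjusted p under 0.05 and DESeq2 called 1 higher and limma voom 0, and the median was 1.41 with *ERR* cond.2 and −0.01 with *ERR* cond.19-4. Of 9 chorion genes 0 were called by any of the 3 tools and 0 had an unadjusted p under 0.05, with medians of 1.10 and −0.24. The 3 yolk protein genes (medians −1.15 and −0.04) and 5 fat body markers (−1.59 and 0.48) had 0 calls by edgeR, DESeq2 or limma voom, with 2 and 1 at an unadjusted p under 0.05. Of 12 female germline markers edgeR called 0, with 4 at an unadjusted p under 0.05, and DESeq2 called 1 lower and limma voom 0 (median 0.01). The 7 neuron and 4 hemocyte markers had 0 calls by each tool and 0 at an unadjusted p under 0.05. None of 11 male accessory gland and testis genes passed the filter on low counts.

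**Figure D5:**
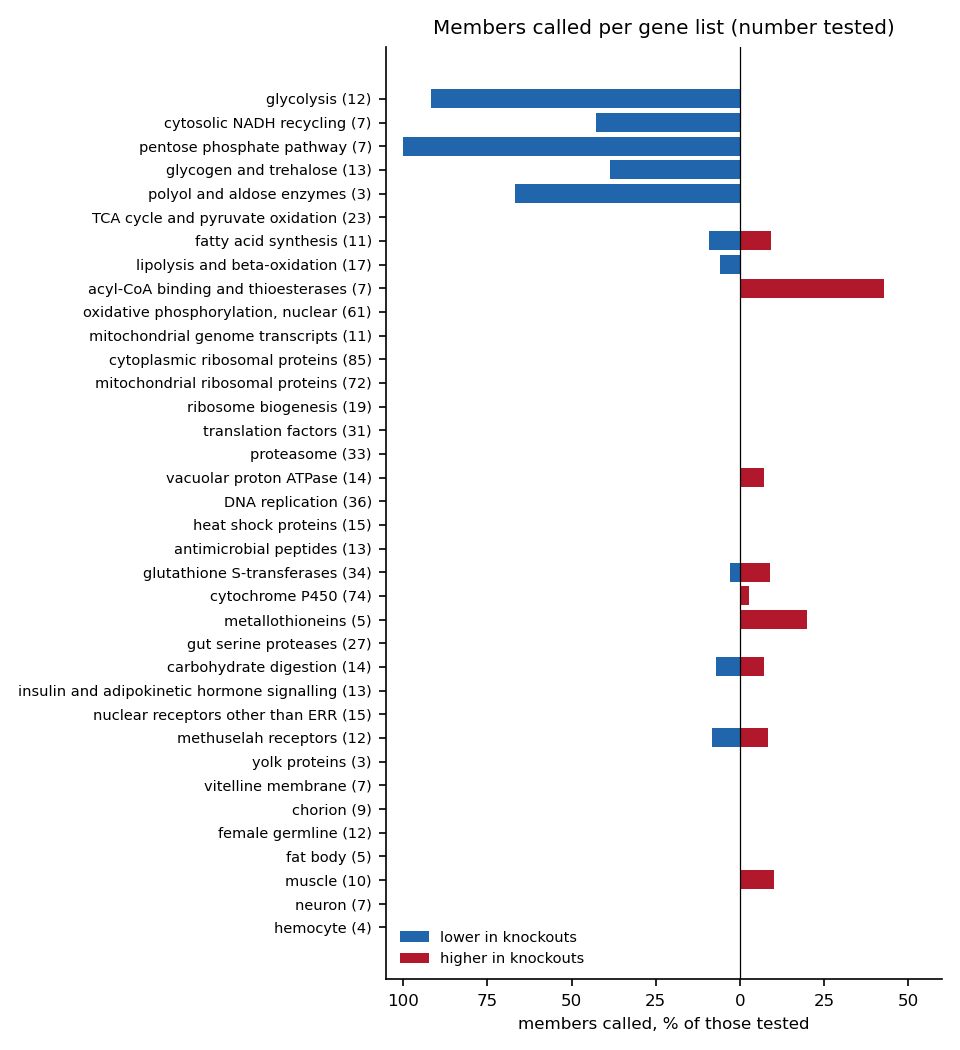
Share of the tested members of each gene list that were called in the common fit, in percent, with blue bars to the left for transcripts that fell and red bars to the right for those that rose, and the number tested in brackets. Glycolysis (11 of 12 lower) and the pentose phosphate pathway (7 of 7 lower) stand out, and lists with no bar had no member called.

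Of 107 transcripts that fell and were tested with both alleles 78 changed more with *ERR* cond.2, beside 70.8% of all tested genes of that sign, and of 76 that rose 45 did, beside 67% of all. An unadjusted interaction p under 0.05 was found for 55 of the 185 called genes (29.7%) and for 2222 of all 10029 genes tested (22.2%). After adjustment 3 genes had an interaction (0.0299%), and of these *Gapdh2* and *Tpi* were called in the common fit. That number rested on single libraries, since it was 112 without *ERR* cond.2 control 2 and 527 without *ERR* cond.2 knockout 3, and DESeq2 called 481. The third, the larval serum protein gene *Lsp1alpha*, had own log2 fold changes of −1.62 with *ERR* cond.2 and 1.31 with *ERR* cond.19-4 and a common value of −0.14 (adjusted p = 0.896, edgeR). *Pfk* (−1.01, adjusted p = 0.0524), *Eno* (−0.51, adjusted p = 0.0534) and *Pgk* (−0.72, adjusted p = 0.0534, edgeR interaction) did not pass for the difference. The own fits called 61 genes with *ERR* cond.2 (0.631% of 9660 tested) and 364 with *ERR* cond.19-4 (3.75% of 9717 tested) in edgeR. With DESeq2 the order was reversed, at 566 with *ERR* cond.2 and 428 with *ERR* cond.19-4. Of the 364 called with *ERR* cond.19-4 in edgeR 253 were not called in the common fit, 217 of them higher in the knockouts. The sign was opposite in *ERR* cond.2 females for 142 of those 217. Genes missed by the common fit are picked in part for a weak or opposite change with *ERR* cond.2. That count is therefore no measure of a difference between the alleles. The median biological coefficient of variation was 0.130 in the *ERR* cond.2 fit and 0.0763 in the *ERR* cond.19-4 fit.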

How the data were processed

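RNA of 12 libraries of whole females was sequenced as 150 bp paired reads. The authors aligned the reads with TopHat, counted them with HTSeq and tested them with DESeq2, and deposited unnormalized counts for each gene. The sources used here do not give versions, genome build or use of strand. A column of gene length was not used. Coordinates are those of the table, and 16959 of 17252 identifiers found in the BDGP6 annotation (98.3%) had the same ones there. Current gene names came from Ensembl and RefSeq tables.

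Counts were fitted with edgeR 4.0.16 in R 4.3.3 (filterByExpr over the 4 groups, TMM, estimateDisp, glmQLFit, glmQLFTest) with allele and arm as additive terms, with Benjamini-Hochberg adjustment over 10029 genes. SE was derived from the fold change and its F statistic. The difference between alleles was the interaction in all 12 libraries, and each allele was also fitted on its own 6 libraries. Libraries totalled 17167432 to 20625801 counts. The 3 libraries of a group came from independent experiments, and no libraries were identical. The fit was tested on simulated data. Alternatives used DESeq2 1.42.0, limma 3.58.1 and other filters, scalings, models, thresholds and library omissions.

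Genes were named by a rule: up to 12 per direction by fold change, if the arms were separated with both alleles and a group averaged 1 CPM or more, 8 per direction by p, 4 called members of each of 38 lists by p, 10 called in neither allele alone, 5 for the difference between alleles, and genes that the study names. *PyK*, *Ald*, *Hex-A*, other list members not called, *PhKgamma*, *CG8417*, *CG6084*, *Galk*, *fbp*, *CG3714*, *CG3699*, *Aldh*, *CTCF*, *Gnmt*, *CG9090* and *Lsp1alpha* were named after their values were seen. The members, lists and rule were chosen with earlier results of these data known. Promoter and protein sequences were not used here. Figures were drawn with Python 3.11.15 and matplotlib 3.10.9.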

Additional observations from a re-analysis of the deposited data

Results flagged for a closer look

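The change of *Gapdh2* differed between the alleles by −1.46 on the log2 scale (SE 0.11, adjusted p = 0.000152, edgeR interaction), with every knockout library of both alleles below every control. The change of *Tpi* differed by −0.78 (adjusted p = 0.0137, edgeR interaction), with own log2 fold changes of −2.89 with *ERR* cond.2 and −2.10 with *ERR* cond.19-4.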

How the results depend on the processing

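No called gene changed sign under any alternative. The common fit called 108 lower and 77 higher, and other settings gave 218 and 207 (DESeq2), 215 and 226 (mean of the alleles' effects in the interaction fit), 180 and 207 (limma voom with quality weights), 48 and 26 (adjusted p under 0.01), 25 and 9 (log2 fold change of at least 1), 47 and 16 (no allele term), and 70 and 77 with total counts as library size. Without both *ERR* cond.2 libraries of number 1 they gave 105 and 130, with 151 of the 185 shared. Replicate numbers were not taken to pair libraries, since 0 of 6 pairs of like number within alleles had deviations correlated over 0.1 (−0.298 to 0.0466). Pairs of unlike number ran from −0.12 to 0.251 with *ERR* cond.2, highest for control 1 with knockout 2. With *ERR* cond.19-4 they ran from −0.0621 to 0.0388. Whether libraries of unlike number shared an experiment was not tested. With the number as a block the counts were 67 and 53, and with a block within allele 42 and 23. Leaving out each library gave 61 to 104 lower and 43 to 79 higher, with both counts down by more than 1.5 times without *ERR* cond.2 control 2 (69 and 45), *ERR* cond.2 knockout 2 (61 and 44) or 3 (69 and 47), *ERR* cond.19-4 control 2 (71 and 46) or *ERR* cond.19-4 knockout 1 (65 and 43), and the higher count without *ERR* cond.2 control 3 (48). The interaction called 3 genes, and 5 with DESeq2 size factors, 15 with total counts, 24 with every gene of at least 1 count, 481 with DESeq2, 29 without the *ERR* cond.2 libraries of number 1, 1 at 0.01 and 1 to 527 on leaving out libraries (112 when *ERR* cond.2 control 2 and 527 when *ERR* cond.2 knockout 3 was omitted, otherwise 1 to 5). The *ERR* cond.2 fit called 61, and 566 with DESeq2, 10 with the block, 19 without its libraries of number 1, 19 at 0.01 and 16 to 46 on leaving out libraries, down by more than 1.5 times for each but *ERR* cond.2 control 2. The *ERR* cond.19-4 fit called 364, and 428 with DESeq2, 206 at 0.01 and 227 (*ERR* cond.19-4 knockout 2 omitted) to 445 on leaving out libraries. Of 68 named genes that were called 32 kept their call in every alternative. The cause of these changes was not tested. Low counts limit *CG5111*, *CG1090* and *sens-2*.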
